A study of Mus musculus with 24 samples.

Results

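The genes described here make, take up, move and sense cholesterol. They were chosen by name, as rows of the deposited tables whose transcript accession belongs to 1 of 41 listed sterol genes. The list was drawn up with earlier results of these data known, the falls of Insig1 and Hmgcs1 described below included. All 41 were found among the 20867 genes of the tables: 18 enzymes of synthesis, 17 genes of uptake and transport, and 6 regulators. Of these, 38 carried enough reads to be tested in every comparison. Abca1, a cholesterol exporter, had 62 reads over all 24 libraries, Gramd1b, a sterol carrier at membrane contacts, had 66, and Nr1h3, an oxysterol-sensing nuclear receptor, had 22, so no test was made for these 3.

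The study used thiol-linked alkylation sequencing of labelled RNA (SLAM-seq) in mouse preleukemic cells, which are fetal liver c-Kit+ progenitors transformed with retroviral Meis1 and Hoxa9. Cells of the genotype labelled Tut4/7 Vav-iCre cDKO (hereafter cDKO) had lost the terminal uridylyltransferases Tut4 and Tut7 through a Cre that is active in blood cells, while controls carried the same floxed alleles (Tut4 fl/fl; Tut7 fl/fl) without the Cre. Both genotypes carried Meis1 and Hoxa9. All cells were fed 2.9 µM 4-thiouridine (4SU) for 12 h, moved to medium without it, and collected at 0, 60, 180 or 540 min of this chase, in 3 replicates of each of the 8 groups. The embryos were taken at E14.5, and per the methods the replicates are biological ones from different animals or embryos.

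Cholesterol synthesis starts from acetyl-CoA, runs through mevalonate and the isoprenoid pyrophosphates to squalene, and ends in a series of sterol modifications. When sterols are low in the endoplasmic reticulum, the escort protein Scap carries the factor encoded by Srebf2 to the Golgi, where it is cut and released to switch on the enzymes. When sterols are high, the proteins encoded by Insig1 and Insig2 hold Scap back. Cholesterol from outside the cell arrives in lysosomes, where Lipa frees it from its esters and Npc2 and Npc1 export it. Proliferating blood cells, leukemic cells included, draw on both supplies.

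Values are CPM, the reads of a gene scaled to the summed reads in 3′ untranslated regions (UTRs), which came to between 4380235 and 7041311 a library. In these 3′-end libraries each transcript gives 1 read position, so CPM compares a gene between samples. After alkylation, T positions that carry 4SU are sequenced as C, and the conversion rate is the share of covered T positions read as C. At 0 min, the rate over all 3′UTRs was 1.64% ± 0.0261 in control and 0.736% ± 0.169 in cDKO (SD, n = 3 each), with cDKO replicate 3 lowest at 0.542%. Tut4 was lower in cDKO at all 4 chase times (log2 change -1.75 to -1.37), as was Tut7 (-1.47 to -0.74). All 12 markers of myeloid progenitors had reads in both genotypes, with a summed level of 9406 to 10462 CPM in control libraries and 3940 to 5199 CPM in cDKO libraries. At 0 min, Elane, Prtn3, Ctsg and Mpo carried the lower sum, and Ptprc, Kit and Spi1 were lower too. Csf2rb was higher, at 341 to 373 CPM in control and 589 to 1023 CPM in cDKO, while Myb, Cebpa, Fcgr3 and Itgam overlapped. The summed level of 8 erythroid markers was 0.37 to 3.07 CPM in control and 1302 to 2081 CPM in cDKO, nearly all of it from Hbb-bt, while the defining markers Epor and Slc4a1 were at 0 in every library. For 8 macrophage markers the ranges were 84.2 to 130.4 and 357.7 to 1037 CPM, with Marco at 0 in every library; Vcam1 and Adgre1 carried the higher sum, while Csf1r stood at 23.5 to 52.99 CPM in control and at most 2.64 CPM in cDKO, and Mrc1, C1qa and C1qb were at 0 in cDKO. For 7 mast cell and basophil markers the sums were 15.8 to 34.5 and 131.6 to 246.8 CPM, with Fcer1a and Tpsb2 at 0. Cpa3 and Gata2 carried the higher sum, while Mcpt8 and Ms4a2 overlapped between genotypes at 0 min. Lymphoid and endothelial or stromal lists stayed at or under 4.25 CPM in every library, and the hepatoblast list, mainly Trf, spanned 51.1 to 83.7 CPM in control and 26.9 to 41.7 CPM in cDKO. Within that list Afp went the other way at 0 min, at 1.88 to 3.64 CPM in control and 6.16 to 8.55 CPM in cDKO. Apoa2 overlapped at 0 min, and Apoa1, Ttr and Fgb were at 0 in every library. These lists moved with genotype beside every genotype result that follows, and their part in those results was not tested. Fewer cells of a type and less RNA per cell cannot be told apart in bulk libraries.

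The promoters of Insig1 and Hmgcs1 are shown because these 2 genes fell in abundance over the chase in both genotypes. Each sequence is the 250 bases before the RefSeq start (GRCm38.p6, plus strand), with capitals at matches on either strand to the sterol regulatory element core CACNCCAC and to the CCAAT box. Insig1 lies at chr5:28071162-28071411 and Hmgcs1 at chr13:119690101-119690350.
Insig1: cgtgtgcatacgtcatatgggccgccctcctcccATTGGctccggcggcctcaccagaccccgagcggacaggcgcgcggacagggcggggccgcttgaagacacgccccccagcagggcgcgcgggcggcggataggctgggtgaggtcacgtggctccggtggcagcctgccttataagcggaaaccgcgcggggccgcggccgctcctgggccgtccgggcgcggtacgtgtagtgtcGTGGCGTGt
Hmgcs1: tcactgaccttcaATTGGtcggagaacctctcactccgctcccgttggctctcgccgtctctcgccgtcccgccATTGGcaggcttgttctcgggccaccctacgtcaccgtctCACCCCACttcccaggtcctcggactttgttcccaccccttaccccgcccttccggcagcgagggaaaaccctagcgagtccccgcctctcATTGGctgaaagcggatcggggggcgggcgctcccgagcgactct
Insig1 held 1 match to CACNCCAC, on the opposite strand and starting 9 bases before the start, and Hmgcs1 held 1 on its own strand, 136 bases before the start. RefSeq windows of 300 bases (250 before to 50 after the start) were at hand for 32 of the 41 genes. CACNCCAC was found in the windows of 4 of these 32, Acat2, Hmgcs1, Insig1 and Stard3, and for 7.12% of the 27025 genes with a window. Its longer form TCACNCCAC was found for Hmgcs1 and Stard3, against 1.44% of all genes, and CCAAT for 23 of the 32, against 41.1%. The shorter form lies inside the longer, so the same site counts for both. No start site or binding was measured here.

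The first question was whether abundance held steady over the chase, which a half-life taken from conversion rates assumes. It did not for the synthesis enzymes. In control, all 18 had a log2 change below 0 at 540 min by edgeR, with a median of -0.40, and 6 of them fell by the test. In CPM, Ebp stayed level, at 100.3% of its 0 min mean. The 15 tested transport genes went the other way, with 13 above 0 and a median of 0.20, and 5 of them rose while 1 fell. The median over all 10226 genes tested was 0.00. In all, 8 of the 38 members fell and 5 rose at 540 min (edgeR adjusted p under 0.05), where 8.18% of all genes fell and 8.06% rose. Insig1 and Hmgcs1, whose falls were known when the members were chosen, are among those 8. The count is therefore no independent test of these genes. Over the 13 settings tried, the synthesis median lay between -0.52 and -0.26 and the transport median between 0.15 and 0.23. In these settings 0 to 2 enzymes lay above 0. The labels give chase time as the batch, so chase time and batch cannot be told apart.

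The summed level of the 18 enzymes shows the same in each library. It was 1108, 1137 and 1116 CPM in control at 0 min and 847, 914 and 851 CPM at 540 min. In cDKO it was 1167, 1078 and 1053 CPM at 0 min and 771, 753 and 733 CPM at 540 min. In both genotypes every 540 min library lay below every 0 min library. The 0 min sums of the genotypes overlapped, whereas at 540 min every cDKO sum was below every control sum. These sums include Fdps and Pmvk on chromosome 3, which were lower in cDKO at every time, and were not taken without them. The transport sum, most of it Npc2 and Anxa2, was 3175, 3124 and 2903 CPM at 0 min and 3720, 3929 and 3683 CPM at 540 min in control. In cDKO it was 2697, 2602 and 2962 CPM at 0 min and 3095, 2733 and 3441 CPM at 540 min, and these ranges overlapped. Between cDKO libraries with the same replicate number, it was higher at 540 min each time.

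Insig1, the sterol-regulated brake on Srebf2 processing, fell the most of the members. In control its abundance was 79.95, 89.5 and 92.2 CPM at 0 min, 67.3, 67.5 and 68.7 CPM at 60 min, 40.7, 38.9 and 25.8 CPM at 180 min, and 25.3, 25.0 and 20.7 CPM at 540 min. In cDKO it was 75.8, 66.2 and 77.8 CPM at 0 min, 82.3, 65.5 and 60.8 CPM at 60 min, 37.6, 35.8 and 34.02 CPM at 180 min, and 18.6, 17.2 and 21.5 CPM at 540 min. From 180 min on, no library of either genotype reached its 0 min range. The log2 change at 540 min was -1.92 ± 0.12 (SE, edgeR adjusted p = 1.8e-08) in control and -1.97 ± 0.15 (edgeR adjusted p = 0.00519) in cDKO. At 180 min it was -1.30 in control (edgeR adjusted p = 5.88e-08) and -1.04 in cDKO, where the edgeR adjusted p was 0.136 and, with the replicate number as a block, 0.0205.

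Hmgcs1, the enzyme that makes HMG-CoA ahead of mevalonate, also fell in both genotypes. In control it stood at 183, 193 and 195 CPM at 0 min, 165, 143 and 134 CPM at 60 min, 146, 112 and 113 CPM at 180 min, and 121, 131 and 101 CPM at 540 min. In cDKO it stood at 177, 191 and 143 CPM at 0 min, 183, 156 and 124 CPM at 60 min, 130.4, 148 and 79.5 CPM at 180 min, and 76.2, 72.8 and 78.2 CPM at 540 min. The log2 change at 540 min was -0.73 ± 0.09 in control (SE, edgeR adjusted p = 5.17e-05) and -1.20 ± 0.14 in cDKO (edgeR adjusted p = 0.0355). At 540 min the cDKO libraries lay below all control libraries, a difference of -0.64 ± 0.11 in log2 (edgeR adjusted p = 0.00444), while at the 3 earlier times the genotypes overlapped. The difference between the genotypes' changes from 0 to 540 min was -0.48 ± 0.17 (edgeR adjusted p = 0.940), so a steeper fall in cDKO was not shown.

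**Figure D1:**
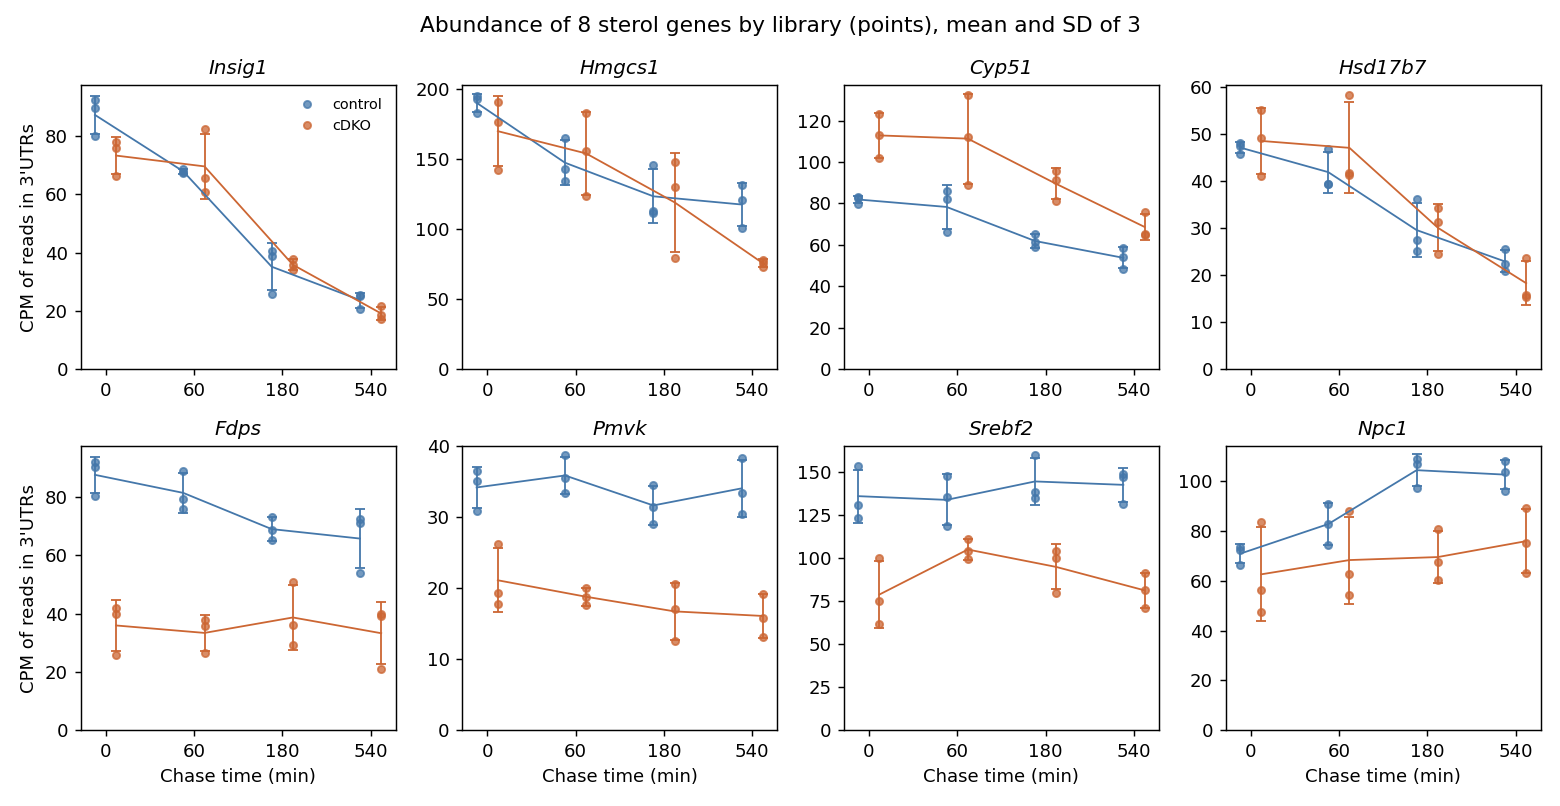
Abundance in CPM (y axis, from 0) of 8 sterol genes by chase time in min (x axis, evenly spaced), with each library as a point and bars for the mean and SD of 3 libraries in control (blue) and cDKO (orange). Insig1, Hmgcs1, Cyp51 and Hsd17b7 end lower than they began in both genotypes, Fdps, Pmvk and Srebf2 lie lower in cDKO at every time, and Npc1 ends higher than it began in control.

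Enzymes late in the pathway fell in control as well. Hsd17b7, a sterol ketone reductase, went from 48.2, 47.5 and 45.8 CPM at 0 min to 20.9, 25.5 and 22.4 CPM at 540 min, or -1.07 in log2 with an SE of 0.14 (edgeR adjusted p = 5.88e-05). Nsdhl, which works in the removal of the methyl groups at carbon 4 of the sterol ring, went from 45.7, 44.7 and 39.3 CPM to 25.7, 28.8 and 25.3 CPM (-0.74, edgeR adjusted p = 0.00157). Msmo1, the oxidase of the same step, went from 92.5, 100.2 and 92.2 CPM to 60.2, 74.8 and 54.4 CPM (-0.62, edgeR adjusted p = 0.00147). For these 3 genes no 540 min library reached the 0 min range. Cyp51, the lanosterol demethylase, went from 83.0, 82.7 and 79.9 CPM to 48.6, 58.7 and 54.0 CPM (-0.64, edgeR adjusted p = 0.000633). Fdps, which makes farnesyl pyrophosphate, went from 90.4, 91.9 and 80.4 CPM to 53.9, 70.9 and 72.3 CPM (-0.45, edgeR adjusted p = 0.0155).

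The falls were partly in place earlier in the chase. At 60 min, 3 members had fallen in control against 1.58% of all genes, and 1 had risen against 1.75%: Hmgcs1 (log2 change -0.35), Insig1 (-0.35) and the lanosterol synthase Lss (-0.59) fell, and the sterol exchanger Osbp rose (0.51). The count of 4 changed from 0 to 3 on leaving out 1 library, and Osbp overlapped between the times. At 180 min, 8 members had fallen against 3.29% of all genes, and 1 had risen against 3.98%. Those that fell were Insig1, the enzymes Msmo1 (-0.66), Hsd17b7 (-0.65), Hmgcs1 (-0.61), Sqle (-0.39), Cyp51 (-0.39) and Fdps (-0.33), and Acat2 (-0.35), the acetyl-CoA acetyltransferase at the start of the pathway. Npc1 rose (0.58, edgeR adjusted p = 0.00021). The count of 9 became 5 without 0 min replicate 2 or 180 min replicate 3 of control, and lay between 5 and 11 over the single libraries left out.

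Of the transport genes, 5 rose by 540 min in control, 3 of them on the lysosomal route. Lipa, the lysosomal acid lipase, went from 36.0, 34.2 and 32.0 CPM to 54.5, 56.0 and 50.1 CPM, a log2 rise of 0.62 with an SE of 0.12 (edgeR adjusted p = 0.00232). Npc1, the lysosomal cholesterol exporter, went from 72.4, 73.5 and 66.4 CPM to 107.9, 103.5 and 96.1 CPM (0.50, edgeR adjusted p = 0.00208). Npc2, which hands cholesterol to Npc1, went from 1192, 1106 and 1018 CPM to 1387, 1524 and 1370.5 CPM (0.33, edgeR adjusted p = 0.00171). In these 3 genes every 540 min library exceeded every 0 min library. Gramd1a, which carries sterol from the plasma membrane to the endoplasmic reticulum, went from 50.1, 59.8 and 54.5 CPM to 70.0, 85.4 and 72.1 CPM (0.43, edgeR adjusted p = 0.0151), and the membrane-binding annexin Anxa2 from 815, 815 and 769 CPM to 978, 1077 and 1031 CPM (0.33, edgeR adjusted p = 0.000659). Stard4, a soluble sterol carrier, was the 1 transport gene that fell, from 74.7, 65.0 and 66.3 CPM to 58.2, 52.7 and 38.8 CPM (-0.50, edgeR adjusted p = 0.0182).

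In cDKO the medians had the same signs. At 540 min, 16 of 18 synthesis enzymes lay below 0 with a median log2 change of -0.63, 11 of 15 transport genes lay above 0 with a median of 0.12, and the median of all genes was 0.01. Insig1 and Hmgcs1 alone fell by the test, where 0.107% of all genes fell. No member rose by the test. The share of all genes that rose is not given here, so the absence of called rises is not read as a result about the transport genes. Within cDKO the replicate numbers mark libraries that deviate together, and with the number as a block 6 members fell against 0.938% of all genes: beside Insig1 and Hmgcs1, these were Hsd17b7 (-1.46, edgeR adjusted p = 0.00789), Sc5d, the sterol C5-desaturase (-0.93, edgeR adjusted p = 0.0315), Msmo1 (-0.88, edgeR adjusted p = 0.0106) and Cyp51 (-0.75, edgeR adjusted p = 0.0132). Hsd17b7 went from 49.3, 55.2 and 41.2 CPM to 23.7, 15.4 and 15.8 CPM, and Msmo1 from 96.3, 99.5 and 69.9 CPM to 51.1, 53.7 and 42.7 CPM. Without the block, the count of 2 ranged from 0 to 2 on leaving out 1 library, and was 0 without replicate 3 at both times. At 60 and 180 min no member was called in cDKO (0 by DESeq2 at 60 min and 1 at 180 min), with 1 and 4 members at an unadjusted p under 0.05. Of all 10085 genes tested at 60 min, 0 were called by edgeR and 8 by DESeq2, so the count there does not set the members apart. For 180 min no share of all genes is given, and the count of that time is not read as a result about the members either.

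No member differed between genotypes in its change from 0 to 540 min (0 of 38 by edgeR and by DESeq2, with 3 at an unadjusted p under 0.05, and 0 of 10651 genes by edgeR). The 3 were Sc5d, with a difference of -0.75 ± 0.25 (SE, edgeR adjusted p = 0.926), Lipa, with -0.54 ± 0.19 (edgeR adjusted p = 0.926), and Hmgcs1.

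**Figure D2:**
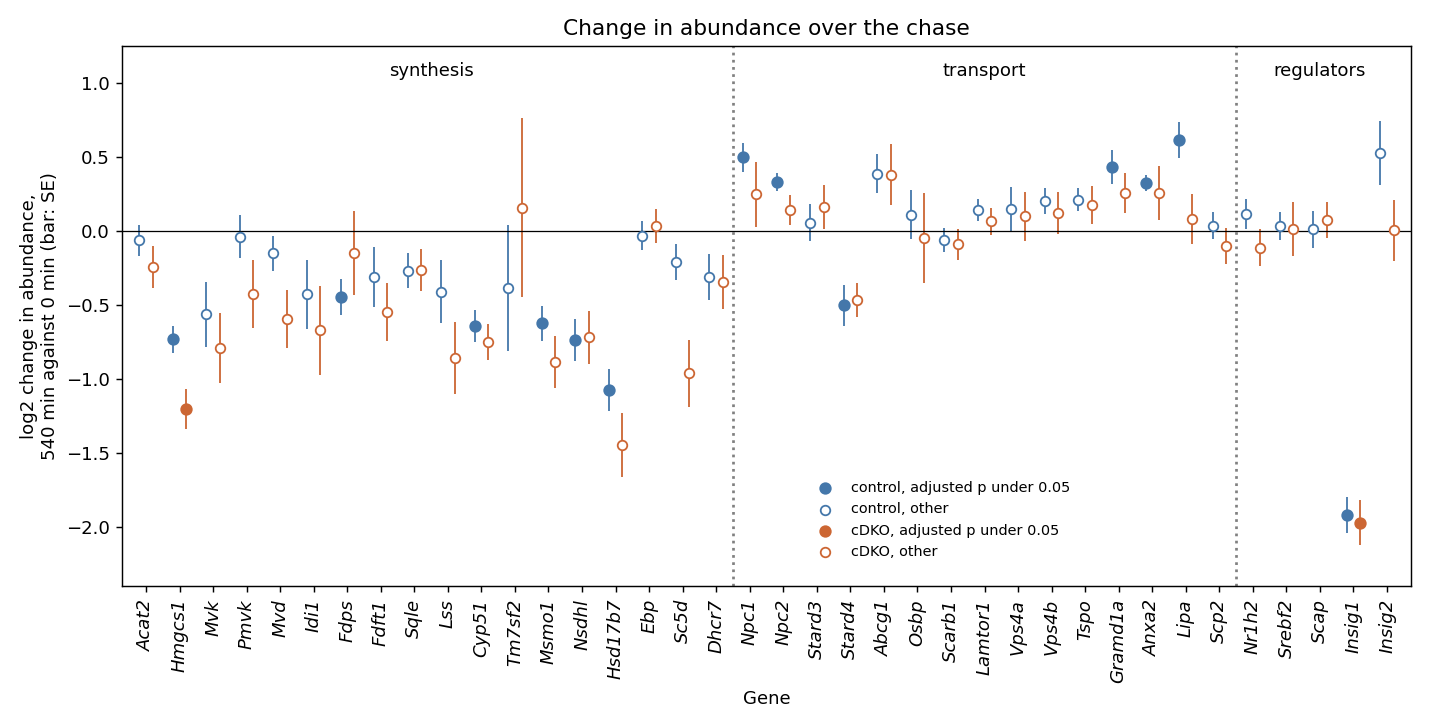
Log2 change in abundance from 0 to 540 min (y axis, bars are SE) for the 38 tested sterol genes (x axis, by group) in control (blue) and cDKO (orange), with filled points for an edgeR adjusted p under 0.05. All 18 synthesis enzymes lie below 0 in control, 13 of 15 transport genes lie above 0, and Insig1 is lowest in both genotypes.

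The second question was how abundance differed between genotypes at each chase time, where each comparison stays within a batch. At 0 min, 4 of 38 members were lower in cDKO against 6.64% of all genes, and 3 were higher against 6.72%. At 60 min, 8 were lower against 10.2% and 6 higher against 9.97%. At 180 min, 7 were lower against 9.78% and 3 higher against 9.10%. At 540 min, 12 were lower against 10.4% and 0 higher against 8.89%. Of the 36 tested members off chromosome 3, 2, 6, 5 and 10 were lower at 0, 60, 180 and 540 min, and the higher counts were the same. The shares of all genes above include chromosome 3 and are too high a background for these 36. That chromosome held 185 of the 676 genes called lower at 0 min, 241 of 1035 at 60 min, 234 of 992 at 180 min and 259 of 1064 at 540 min. A share without it was not taken. The median log2 change over the 38 members was -0.07 at 0 min, -0.03 at 60 min, -0.07 at 180 min and -0.27 at 540 min, where the median of all genes was within 0.01 of 0 at each time. Leaving out 1 replicate number of 1 genotype gave 1 to 11 members at 0 min, 8 to 15 at 60 min, 6 to 13 at 180 min and 7 to 12 at 540 min. With the replicate block the 0 min count was 4. Same-numbered control and cDKO libraries of a chase time did not deviate together (r of -0.051 to 0.047), so the block has no measured basis between genotypes.

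Of the mevalonate branch, the enzymes on chromosome 3 are given apart. Across this chromosome the median log2 change lay between -0.52 and -0.48 at the 4 times, and 185 to 259 of its 478 to 483 tested genes were lower in cDKO, while elsewhere in the genome the median was between 0.01 and 0.02. Fdps lies there, counted on the minus strand in a 3′UTR interval of 55 bases (mm10 chr3:89093588-89093642), as does the phosphomevalonate kinase Pmvk (plus strand, chr3:89468651-89469009). Fdps stood at 42.0, 39.9 and 25.9 CPM in cDKO at 0 min, against 80.4 to 91.9 CPM in control. Its cDKO level was 35.8, 38.0 and 26.3 CPM at 60 min, 50.9, 36.0 and 29.1 CPM at 180 min, and 39.7, 39.0 and 21.0 CPM at 540 min. Control Fdps was 79.4, 88.9 and 75.9 CPM at 60 min and 68.8, 73.0 and 65.1 CPM at 180 min. The genotypes did not overlap at any time, with log2 changes of -1.27 (edgeR adjusted p = 0.00297), -1.31 (0.000252), -0.85 (0.00908) and -0.99 (0.0155) from 0 to 540 min.

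Pmvk was lower at all 4 times too. Its cDKO levels were 26.3, 19.4 and 17.8 CPM at 0 min and 15.9, 19.3 and 13.2 CPM at 540 min, against 36.6, 35.1 and 30.9 CPM and 30.5, 38.4 and 33.4 CPM in control. The log2 change was -0.68 (edgeR adjusted p = 0.0443), -0.95 (0.00147), -0.94 (0.01) and -1.09 (0.00369) from 0 to 540 min. Set against the chromosome 3 median of the same time, the log2 change of Fdps differed by -0.76, -0.83, -0.33 and -0.47 and that of Pmvk by -0.17, -0.47, -0.41 and -0.57. Between 28 and 86 of the chromosome 3 genes lay at or below Fdps, and between 44 and 154 at or below Pmvk. What the shift of the chromosome contributes to either gene was not tested.

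The other mevalonate and early enzymes moved less. Mvd, which decarboxylates mevalonate pyrophosphate, was lower in cDKO at 540 min alone, at 41.5, 34.7 and 37.0 CPM against 56.1, 68.2 and 53.8 CPM (-0.66 ± 0.14, edgeR adjusted p = 0.00886). Idi1, the isopentenyl pyrophosphate isomerase, was higher at 60 min (0.47, edgeR adjusted p = 0.0225), but 88.3% of its reads mapped to more than 1 place. Fdft1, the squalene synthase that commits the pathway to sterols, was called at no time. It stood at 18.6, 19.4 and 26.5 CPM in control and 29.5, 21.7 and 31.6 CPM in cDKO at 0 min, and at 18.7, 20.6 and 14.3 CPM and 22.0, 17.9 and 17.8 CPM at 540 min, and its groups overlapped at both times. Of its reads, 48.6% mapped to more than 1 place, and its interval overlaps Ctsb on the opposite strand. Acat2 (74.3 to 121.4 CPM over all libraries) and Mvk, the mevalonate kinase (8.75 to 22.3 CPM), were not called between genotypes.

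Of the sterol branch, Cyp51 was higher in cDKO at 0, 60 and 180 min. It stood at 113, 102 and 123 CPM in cDKO at 0 min, 132, 89.1 and 112 CPM at 60 min, 95.8, 81.2 and 91.3 CPM at 180 min, and 65.2, 64.8 and 76.0 CPM at 540 min. The control levels were 79.9 to 83.0 CPM at 0 min, 82.3, 66.4 and 86.1 CPM at 60 min, and 65.4, 61.3 and 58.9 CPM at 180 min. Its log2 change was 0.47 (edgeR adjusted p = 0.0206), 0.49 (0.0491) and 0.51 (0.0106), with no shared range at those times; the replicate block gave an edgeR adjusted p of 0.0577 at 0 min, and scaling from genes outside chromosome 3 gave 0.0554 at 60 min. Lss was higher at 60 min, at 44.5, 38.0 and 38.1 CPM against 23.04, 19.9 and 19.5 CPM (0.93 ± 0.15, edgeR adjusted p = 0.00166); its interval overlaps 4930483K19Rik on the opposite strand. Sc5d was lower at 540 min, at 25.8, 24.3 and 27.96 CPM against 39.7, 37.1 and 39.6 CPM (-0.58 ± 0.13, edgeR adjusted p = 0.0125). The squalene epoxidase Sqle (37.0 to 79.1 CPM), Tm7sf2 (1.247 to 8.32 CPM), Msmo1, Nsdhl, Hsd17b7, the sterol isomerase Ebp (96.9 to 167 CPM) and Dhcr7 (25.6 to 43.8 CPM), which makes the last reduction to cholesterol, were not called between genotypes at any time.

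Among the transport genes, 2 were higher and 1 lower in cDKO at 0 min, while more were lower than higher at 60 min (5 and 3), 180 min (4 and 2) and 540 min (6 and 0). Scp2, a peroxisomal sterol carrier, stood at 90.4, 83.1 and 100.6 CPM in cDKO against 125, 124 and 123 CPM in control at 60 min, and at 85.4, 84.6 and 88.5 CPM against 123, 134 and 119 CPM at 540 min. Its log2 change was -0.46 (edgeR adjusted p = 0.00735), -0.44 (0.015) and -0.55 (0.0028) at 60, 180 and 540 min, with no overlap of the groups; 79.3% of its reads mapped to more than 1 place. Anxa2 was 563, 503 and 710 CPM in cDKO against 805, 972 and 862 CPM at 60 min, and 736, 577 and 913 CPM against 978, 1077 and 1031 CPM at 540 min (-0.59, -0.49 and -0.48 at 60, 180 and 540 min, edgeR adjusted p = 0.00649, 0.0369 and 0.0415). Npc2 was lower at the same 3 times by a smaller amount (-0.23, -0.32 and -0.35), at 1111, 1008 and 1261 CPM against 1370.5 to 1524 CPM at 540 min; with the replicate block none of the 3 was called (edgeR adjusted p = 0.058, 0.0506 and 0.051).

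Npc1 was lower at 180 min, at 60.4, 67.3 and 80.6 CPM in cDKO against 106.9, 109 and 97.1 CPM (-0.60 ± 0.13, edgeR adjusted p = 0.00732), and at 540 min, at 75.3, 63.2 and 89.0 CPM (-0.44 ± 0.13, edgeR adjusted p = 0.0453, and 0.0743 with the replicate block). Its interval overlaps Rmc1 on the opposite strand. Lipa was lower at 540 min, at 32.3, 30.6 and 39.4 CPM against 50.1 to 56.0 CPM (-0.66 ± 0.13, edgeR adjusted p = 0.00837). For both genes the genotypes differed at the times when the control level had risen. Neither was called for a difference between genotypes in its change from 0 to 540 min, so a smaller rise in cDKO was not shown. Stard3, a sterol carrier of late endosomes, stood at 34.02, 36.5 and 30.7 CPM in cDKO against 44.5, 55.4 and 52.5 CPM at 0 min, and was lower at 60 and 540 min as well (-0.57, -0.63 and -0.50, edgeR adjusted p = 0.032, 0.0113 and 0.0295). The 0 min value of Stard3 was not called with the replicate block (edgeR adjusted p = 0.0523). Tspo, a mitochondrial outer membrane protein, was lower at 60 min (-0.40, edgeR adjusted p = 0.0155).

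The transport genes higher in cDKO were Gramd1a, Stard4 and Abcg1. Gramd1a stood at 75.3, 86.5 and 75.4 CPM in cDKO against 50.1, 59.8 and 54.5 CPM at 0 min, and at 85.03, 96.6 and 111 CPM against 61.6, 63.9 and 60.5 CPM at 180 min. Its log2 change was 0.55 (edgeR adjusted p = 0.0261), 0.63 (0.00659) and 0.64 (0.00473) at 0, 60 and 180 min, with no overlap of the groups at these times. Stard4 stood at 96.1, 87.4 and 88.8 CPM against 74.7, 65.0 and 66.3 CPM at 0 min, with log2 changes of 0.42, 0.42 and 0.46 at 0, 60 and 180 min (edgeR adjusted p = 0.0497, 0.0278 and 0.0391); the 0 min value was not called with the replicate block (edgeR adjusted p = 0.0899) or with scaling from genes outside chromosome 3 (0.0547). Abcg1, an exporter of sterols, was higher at 60 min, at 46.3, 52.4 and 48.9 CPM against 25.8, 27.9 and 26.9 CPM (0.85 ± 0.12, edgeR adjusted p = 0.000899). Osbp, Scarb1, Lamtor1, Vps4a and Vps4b were not called between genotypes. Of the Lamtor1 reads, 41.0% mapped to more than 1 place.

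Of the regulators, Srebf2 was lower in cDKO at all 4 times. It stood at 100.2, 61.6 and 75.2 CPM in cDKO against 154, 131 and 124 CPM in control at 0 min, and at 111, 104.5 and 99.7 CPM against 119, 148 and 136 CPM at 60 min. At 180 min it stood at 104.6, 100.5 and 80.1 CPM against 135, 160.4 and 139 CPM, and at 540 min at 81.8, 91.6 and 70.9 CPM against 148, 132 and 149 CPM. No cDKO library reached the control range of its time. The log2 change was -0.78 (edgeR adjusted p = 0.0174), -0.37 (0.0274), -0.63 (0.00526) and -0.82 (0.00115), and the replicate block gave an edgeR adjusted p of 0.0534 at 60 min. Over the chase in control its log2 change at 540 min was 0.03 ± 0.09 (SE, edgeR adjusted p = 0.863). Srebf2 lies on chromosome 15. Scap, Insig1, Insig2 and Nr1h2, an oxysterol-sensing nuclear receptor, were not called between genotypes at any time.

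**Figure D3:**
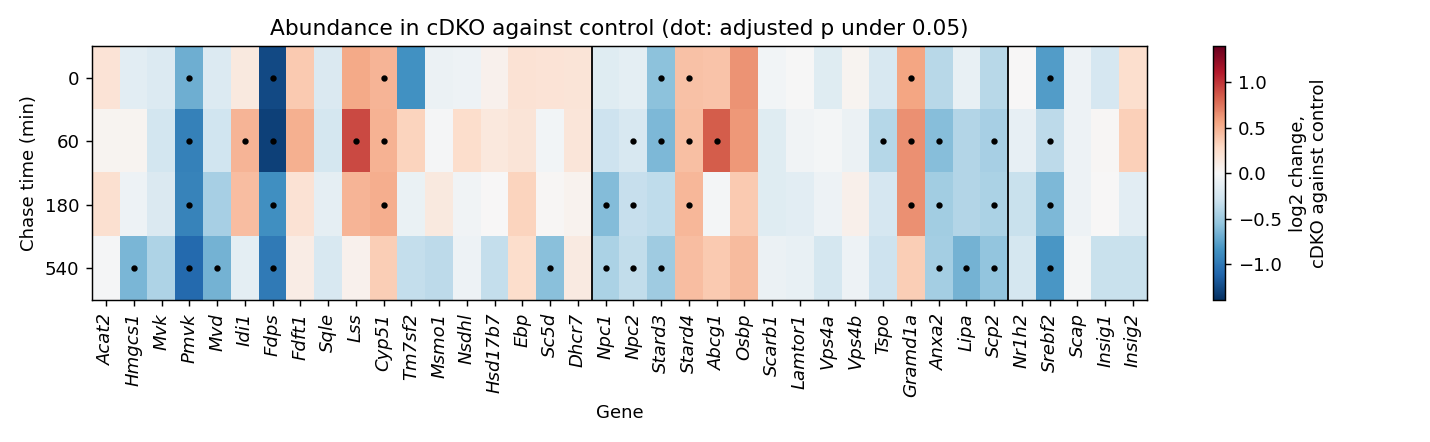
Log2 change of cDKO against control (colour, red higher and blue lower in cDKO) for the 38 tested sterol genes (x axis, vertical lines part synthesis, transport and regulators) at each chase time in min (y axis), with a dot for an edgeR adjusted p under 0.05. Fdps, Pmvk and Srebf2 are dotted at all 4 times, and no gene is dotted as higher at 540 min.

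The third question was how fast labelled transcripts of these genes were lost. The conversion rate of Insig1 was 3.24, 3.26 and 2.92% in control and 1.80, 2.14 and 1.31% in cDKO at 0 min, above the rate over all 3′UTRs in both genotypes. It was 1.63, 1.84 and 1.44% in control and 0.833, 1.15 and 0.701% in cDKO at 180 min, and at most 0.119% in any library at 540 min. Hmgcs1 lost its label sooner. Its rate was 1.86, 2.03 and 2.21% at 0 min and 0.423, 0.440 and 0.368% at 180 min in control, and 1.10, 1.17 and 0.527% and then 0.191, 0.220 and 0.275% in cDKO. At 180 min, 52.1% of the 0 min rate of Insig1 and 20.2% of that of Hmgcs1 were left in control, and 51.2% and 24.5% in cDKO. At 540 min the group means of both genes were at or below the rate that short-lived genes kept at that time, 0.0767% in control and 0.0751% in cDKO.

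A rate holds labelled over total transcripts of a gene, so a fall in the total slows the loss of the rate. The product of rate and CPM follows the labelled transcripts alone. By this product, 21.4% of labelled Insig1 was left at 180 min in control and 25.4% in cDKO, and 13.1% and 16.1% of labelled Hmgcs1. The half-life of Insig1 fitted to the rate was 189.9 min for control cells and 188 min for cDKO cells, and fitted to the product 100.05 and 130.01 min. For Npc1, whose level rose in control, the order was the other way: 178 min from the rate and 259 min from the product in control, and 259.9 and 299.8 min in cDKO.

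**Figure D4:**
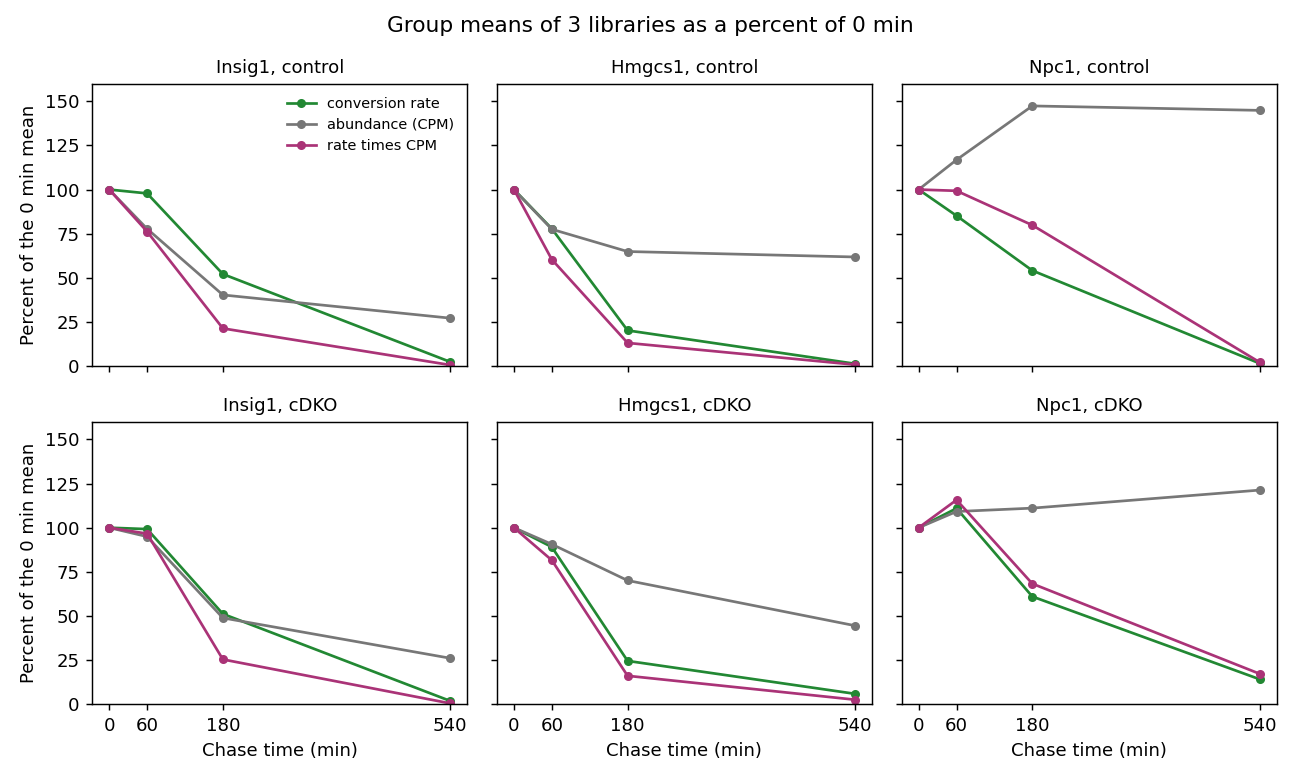
Conversion rate (green), abundance in CPM (grey) and their product (purple) as a percent of the 0 min mean (y axis) over chase time in min (x axis) for Insig1, Hmgcs1 and Npc1, each point a mean of 3 libraries, control above and cDKO below. The product falls faster than the rate for Insig1 and Hmgcs1, whose abundance falls, and more slowly for Npc1 in control, whose abundance rises.

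Half-lives were fitted to the rates of genes with at least 100 covered T positions in every library and an SD of the normalised 0 min rates under 0.3 in both genotypes. Of the 41 members, 23 passed: 10 synthesis enzymes, 9 transport genes and 4 regulators. Of the rest, 15 were covered but too variable at 0 min, and the 3 with few reads were not covered. In control the median half-life was 267 min for the synthesis enzymes, 269.5 min for the transport genes and 254 min for the regulators, beside 224 min over all 3712 genes that passed. With a log-linear fit the synthesis median was 131 min, the transport median 225 min and the median of all genes 146 min, so the order of the 3 depends on the model. The shortest control half-lives were those of Osbp (133 ± 48.9 min), Msmo1 (139.6 ± 12.6 min) and Hsd17b7 (142 ± 37.8 min), and the longest those of Ebp (559 ± 146 min), Tspo (551 ± 397 min), Scp2 (464 ± 264 min), Anxa2 (429 ± 26.3 min) and Gramd1a (429 ± 51.6 min; SD of 3 single-replicate fits). Neighbours among these 3 and among these 5 differed by less than their spread. Fitted to the product of rate and CPM, Osbp had a control half-life of 191 min. Insig1 had 100.05 min, Hsd17b7 102 min and Msmo1 108 min, though Hsd17b7 and Msmo1 did not pass the 0 min filter on that product. The control medians of that fit were 228 min (4 enzymes), 414 min (8 transport genes) and 220 min (all genes), so the order depends on the measure too.

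Between genotypes, the median log2 ratio of half-lives, cDKO over control, was 0.30 over the 23 members, and 0.19 over all genes. Longer half-lives in cDKO were found for 9 of 9 transport genes and 5 of 10 synthesis enzymes, and for 68.6% of all genes. This difference between the groups depended on the model: a log-linear fit gave 8 of 9 transport genes and 8 of 10 synthesis enzymes, with median log2 ratios of 0.26 and 0.29, against 80.7% of all genes. With the rate of short-lived genes subtracted the counts were 7 of 9 and 2 of 8, against 56.5% of all genes. With rate times CPM they were 6 of 8 and 3 of 4, against 71.4%. Without cDKO replicate 3 they were 11 of 15 and 7 of 15, against 62.5%. Without cDKO replicate 3, the library set with the lowest labelling, 35 members passed. The median log2 ratio was then 0.04 over members and 0.13 over all genes. Without cDKO replicate 1 these medians were 0.59 and 0.23, and with the rate of short-lived genes subtracted they were 0.09 and 0.07.

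For 7 of the 23 members the 3 replicate half-lives of cDKO lay above all 3 of control, against 17.0% of all genes, and for 1 they lay below, against 3.23%. Npc1 had control replicate half-lives of 186, 151 and 200.3 min and cDKO ones of 248.6, 318 and 209 min. For Srebf2 they were 385, 328 and 277 min and 589.5, 408 and 782 min, and for Gramd1a 487, 384 and 427 min and 669.9, 624 and 1367 min. The other 4 that were longer were Msmo1, Nsdhl, Ebp and Lipa. Sc5d was shorter, with control fits of 159, 229 and 199 min and cDKO fits of 110.3, 129 and 94.0 min. The spread among the cDKO replicates exceeded that among controls in each of the 7 that were longer, and reached an SD of 3981 min for Ebp and 1817 min for Lipa.

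**Figure D5:**
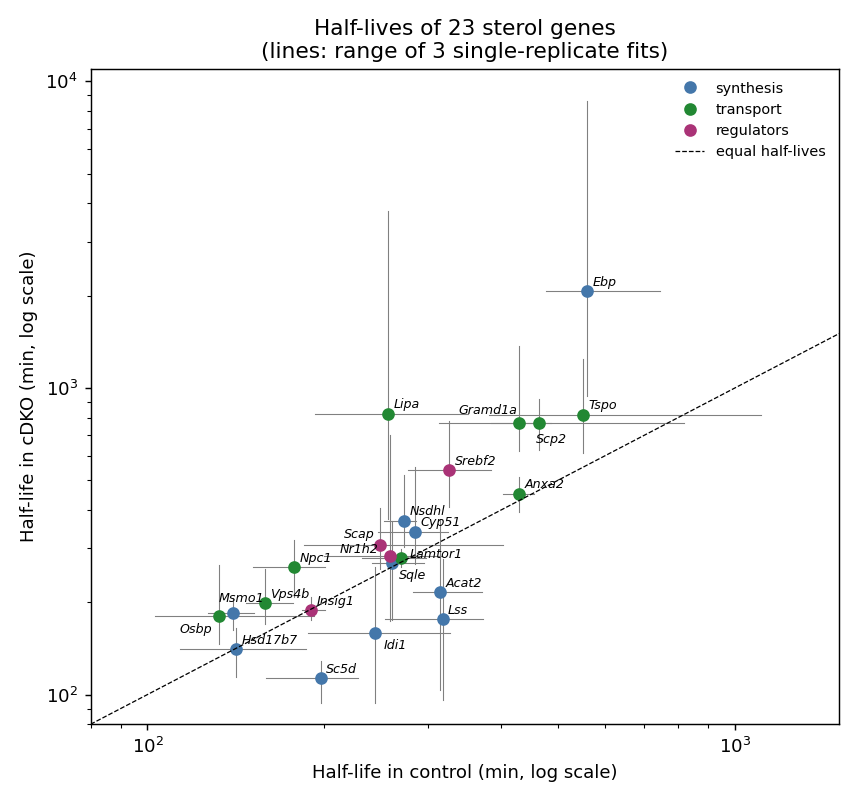
Half-life in control (x axis, min, log scale) and in cDKO (y axis, min, log scale) of the 23 sterol genes that passed, coloured by group, with grey lines for the range of 3 single-replicate fits and a dashed line of equality. All 9 transport genes lie above the line, and the synthesis enzymes lie on both sides; with a log-linear fit, which is not drawn, 8 of 9 and 8 of 10 were longer in cDKO.

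Loss of conversions was also tested gene by gene, as the difference between genotypes in the slope of the log rate against time. No member passed (0 of 38, with 9 at an unadjusted p under 0.05, and 10 of all 9207 genes tested). The slope was less steep in cDKO for 35 of the 38, with a median difference of 0.07 log2 units per h, as it was for 7433 of the 9207 genes, with the same median over all genes (0.07). Over the 13 settings tried, 18 to 35 members had the less steep slope in cDKO, and their median lay between -0.0063 and 0.079. Npc1 came closest: its log2 rate fell by 0.64 ± 0.05 per h in control and by 0.33 ± 0.05 per h in cDKO, a difference of 0.30 ± 0.07 (SE, edgeR adjusted p = 0.051). Of its 0 min rate, 54.1% was left at 180 min in control and 61.0% in cDKO, while 1.54% and 14.2% were left at 540 min. With the replicate block Npc1 was called as slower in cDKO (edgeR adjusted p = 0.0457), where 0.597% of all genes were, and it was called by DESeq2 (adjusted p = 0.00446); over the other settings its adjusted p lay between 0.00446 and 0.255, except without the 540 min libraries, where the difference was 0.04. For Insig1 the difference was 0.02 ± 0.09 (edgeR adjusted p = 0.929), for Hmgcs1 0.23 ± 0.08 (0.149), for Srebf2 0.08 ± 0.04 (0.308) and for Fdps 0.11 ± 0.08 (0.463).

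Genes next to the pathway gave a point of comparison, to be read against the 6.64 to 10.4% of all genes called in a direction between genotypes. Of 15 genes of prenylation and the isoprenoid branch, 14 were tested, and 0 to 2 were higher and 0 to 1 lower in cDKO at each time. Of 15 genes of fatty acid synthesis, 10 or 11 were tested, and 1 to 3 were higher and 0 to 4 lower. Of 10 genes of Srebf processing and sterol sensing, all were tested, and 0 to 2 were higher and none lower. Of 11 genes that handle cholesterol esters and oxysterols, 6 were tested, and 2 to 3 were lower and 0 to 1 higher. The 2 genes of these lists that were called at all 4 times belong to the last. Soat1, which esterifies cholesterol, was lower with log2 changes of -0.92, -1.12, -1.07 and -1.15 (edgeR adjusted p = 0.00251, 0.00139, 0.000496 and 0.000342), and Plin2, a coat protein of lipid droplets, with -0.52, -0.62, -0.84 and -0.85 (edgeR adjusted p = 0.0154, 0.00188, 0.000232 and 0.000438). Over the chase in control, the isoprenoid list had a median log2 change of -0.27 at 540 min and 2 of its genes were lower, as were 2 of fatty acid synthesis and 1 of sterol sensing, while 1 of the ester list was higher, where 8.18% of all genes were lower and 8.06% higher. In cDKO no gene of the 4 lists was called at 540 min.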

How the data were processed

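Reads of 3′-end libraries (QuantSeq FWD) from 24 samples had been processed by the authors with SlamDunk v0.4.3 on GRCm38, giving per-library tables over 3′UTR intervals. The deposited read counts are whole numbers, the deposited CPM values use the filtered reads of each library as the total (CPM in the report was recomputed from the summed counts), and the deposited conversion rates are a fraction of covered T positions, given here in percent. No molecular identifiers were used, so PCR copies were counted as reads.

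Lines were matched to genes by transcript accession (99.2% of lines), intervals were summed by gene, and the counts were tested in edgeR 4.0.16 (R 4.3.3) by the quasi-likelihood test with TMM scaling, filterByExpr and Benjamini-Hochberg adjustment at 0.05 over all genes tested, two-sided. Genotypes were compared at each chase time, chase times within each genotype, and the changes by interaction. Loss of conversions was tested in edgeR as the difference in slope over hours between genotypes, with converted positions as counts and covered positions, on a log scale, as offset. Half-lives came from a single exponential on rates divided by the 0 min mean, with the methods' filter on the 0 min SD. Alternatives were DESeq2 1.42.0, the replicate block, other scalings, filters and models, and each replicate left out. Scripts were tested on simulated data.

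Same-numbered cDKO libraries deviated together across chase times (18 pairs, r of 0.247 to 0.662), so the number was taken to pair libraries within cDKO. In control r was -0.006 to 0.087 and between genotypes it was -0.051 to 0.047, and there the number was not taken to pair libraries. The block was still fitted in those comparisons as an alternative. The members and gene lists were chosen with earlier results of these data known, the falls of Insig1 and Hmgcs1 included. Values per library are given for members called between genotypes at 2 or more chase times or between 540 and 0 min in either genotype, for those on chromosome 3, and for Insig1, Hmgcs1, Fdps, Fdft1, Cyp51 and Srebf2; Lss, Mvd, Sc5d and Abcg1 were added after their values were seen. Genes of other lists are named where called between genotypes at all 4 times. Transcripts of the tables that matched no gene were not used here.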

Additional observations from a re-analysis of the deposited data

How the results depend on the processing

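Depth limits the 3 genes with few reads, and the lower labelling of cDKO limits its rates. Of the values for single genes, 1052 kept their direction and side of the threshold, 169 fell short of it, 7 passed it and 22 turned sign; the cause was not tested.

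With the replicate block, the members called numbered 4 in place of 7 between genotypes at 0 min, 2 in place of 4 in control at 60 min, 1 in place of 0 in cDKO at 180 min, 6 in place of 2 in cDKO at 540 min, and 1 in place of 0 for loss of conversions. DESeq2 gave 2 in control at 60 min, 1 in cDKO at 180 min, 6 in cDKO at 540 min and 1 for loss of conversions. A single fit of the 12 libraries of a genotype gave 0, 1 and 5 for the first 3 of these, and summing all intervals gave 2 in control at 60 min. At least 1000 covered T gave 1 for loss of conversions. Leaving out 1 library or replicate gave 1 to 11 between genotypes at 0 min, 8 to 15 at 60 min, 6 to 13 at 180 min and 7 to 12 at 540 min; 0 to 3, 5 to 11 and 11 to 13 in control at 60, 180 and 540 min; 0 to 2 in cDKO at 540 min; and 0 to 1 for loss of conversions. Without cDKO replicate 3 at both times, a setting chosen after seeing the data, cDKO had 0 at 540 min.

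The median log2 half-life ratio of 0.30 was 0.087 with the floor rate subtracted, 0.44 without the 540 min libraries, and 0.042 to 0.59 on leaving out a replicate. The control synthesis median of 267 min was 131 min by log-linear fit and 397 min without the 540 min libraries. It was 228 min for labelled RNA, over the 4 enzymes that passed, and 269 to 315 min on leaving out a replicate. The transport median was 414 min for labelled RNA, over 8 genes, and 254 to 429 min on leaving out a replicate.

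Values that turned sign had not passed the threshold. With scaling from genes outside chromosome 3, 6 members in place of 7 were called between genotypes at 0 min and 13 in place of 14 at 60 min, and Insig1 was -0.0017 at 60 min and -0.0079 at 180 min. Without the 540 min libraries the slope differences were -0.18 for Pmvk, -0.030 for Cyp51 and -0.0097 for Insig1, and with the library-wide rate as offset -0.018 for Insig1. On leaving out a replicate, the value between genotypes ranged from -0.099 to 0.17 for Hmgcs1 and -0.12 to 0.098 for Insig1 at 60 min, from -0.25 to 0.15 and -0.19 to 0.11 at 180 min, and from -0.035 to 0.24 for Fdft1 at 540 min. From 0 to 540 min it ranged from -0.14 to 0.035 for Pmvk and -0.032 to 0.15 for Srebf2 in control, and from -0.34 to 0.097 for Fdps and -0.13 to 0.21 for Srebf2 in cDKO. The Insig1 slope difference ranged from -0.012 to 0.051.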
